A study of Mus musculus with 4 samples.

Results

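*Tnxb*, *Cdh4*, *Cadm4*, *Mcam*, *Nlgn3* and *Ncam1* are 6 of the 27998 genes counted, all of them genes of cell adhesion. They were selected on their UMI levels in myogenic cells of these same libraries, as genes seen lower in dystrophic than in control mice, so their difference in *Pax7*-positive cells is how they were chosen and is described here without a test. Satellite cells sorted from hindlimb muscle (α7-integrin+ and VCAM1+, negative for CD11b, Sca1, CD45 and CD31) gave 1 droplet library with 3′ tags per strain, each from 2 pooled mice. The control libraries are B10 (C57/Bl10ScsSn, 15 weeks) and DBA (DBA/2, 13 weeks), and the dystrophic ones are *mdx* (C57BL/10ScSn-Dmdmdx, 11 weeks) and D2-*mdx* (D2.B10-Dmdmdx, 14 weeks). Both dystrophic strains carry the *mdx* mutation of the dystrophin gene *Dmd*, the first on the B10 and the second on the DBA background. Age differs with strain and cannot be told apart from it. With 1 library per strain there is no replicate and no p-value. Levels are given as CPM, the unique molecular identifiers (UMIs) of a gene per 1000000 UMIs of the cells. The intervals in parentheses are exact at 95% and cover counting error only, so they hold nothing of the spread between mice. Since tags come from 3′ ends, levels are compared between libraries and classes, not between genes.

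Cell adhesion molecules hold a cell to its neighbours and to the extracellular matrix. A satellite cell lies between the myofibre and the basal lamina, and its contacts with both are known to help keep it quiescent. Cadherins bind cadherins on the next cell, adhesion proteins of the immunoglobulin superfamily bind one another, neuroligins bind neurexins, and tenascins are glycoproteins of the matrix itself.

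*Tnxb* and *Cadm4* are shown with their upstream sequence because they are the members, among those lower in both dystrophic libraries, whose window was in the reference and free of annotated exons. Each is the 250 bases before the gene's start in RefSeq on GRCm38.p6, plus strand, 5′ to 3′. Capitals mark matches, on either strand, to an E-box (CANNTG), an AP-1 site (TGANTCA) or a GC box (GGGCGG), and no match overlaps another.
*Tnxb*, chr17:34670285-34670534: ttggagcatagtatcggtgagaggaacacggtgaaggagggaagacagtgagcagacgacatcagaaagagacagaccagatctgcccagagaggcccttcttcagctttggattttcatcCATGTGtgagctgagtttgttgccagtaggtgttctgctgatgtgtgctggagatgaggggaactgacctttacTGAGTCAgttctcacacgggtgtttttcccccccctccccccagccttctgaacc
*Cadm4*, chr7:24481773-24482022: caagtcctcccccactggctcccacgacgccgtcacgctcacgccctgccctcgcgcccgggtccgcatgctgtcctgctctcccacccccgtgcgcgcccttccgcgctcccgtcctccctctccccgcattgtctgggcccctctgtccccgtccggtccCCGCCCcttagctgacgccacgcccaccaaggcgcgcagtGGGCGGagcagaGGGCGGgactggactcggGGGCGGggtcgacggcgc
The *Tnxb* window holds 1 E-box and 1 AP-1 site, with a GC content of 52.4% and 4 CpG dinucleotides. The *Cadm4* window holds 4 GC boxes, with a GC content of 75.2% and 30 CpG dinucleotides. Over 32817 windows of the same length, 66.2% held an E-box, 6.75% an AP-1 site and 32.7% a GC box, and the median GC content was 52.4%. A match is a run of letters and not a shown binding site, and whether these starts are used in satellite cells was not tested. Near its end the *Tnxb* window holds a pyrimidine tract followed by AG, as splice acceptors do. The *Tnxb* start may therefore not be the one used in satellite cells.

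After filtering, 4581 cells of B10, 3279 of DBA, 6313 of *mdx* and 5756 of D2-*mdx* remained. A cell with at least 4 marker genes of pericytes, glia, endothelium, white blood cells, smooth muscle or fibroblasts was put in that class. A *Pax7*-positive cell is one outside these classes that holds a *Pax7* UMI and is neither dividing nor *Myog*-positive, and there were 4365 in B10, 2621 in DBA, 4014 in *mdx* and 3313 in D2-*mdx*. *Dmd* in them was at 326 CPM in B10 and 292 in DBA, while *mdx* had 134 and D2-*mdx* 118, so it went with the labels. *Pax7*, the transcription factor that marks satellite cells, was at 916 and 712 CPM against 511 and 573. Any pair of libraries shared 3 to 8 cell barcodes. Sums of the marker lists of other classes in *Pax7*-positive cells also differed between libraries. A gene on such a list is not thereby RNA from cells of that class. B10 gave 2 fibroblasts and DBA 3, and whether *Pax7*-positive cells express listed genes themselves was not tested. The list of 10 pericyte genes summed to 136 CPM in B10 and 123 in DBA, while *mdx* had 78.0 and D2-*mdx* 111, and that of 10 fibroblast genes to 526 and 766 against 248 and 507 CPM. Within these lists *Vtn* had 103 and 85.6 CPM in the controls against 33.9 and 37.9, and *Dpt* 521 and 764 against 233 and 492. The lower sums rest on *Vtn* and *Dpt*, and without them both lists had higher sums in each dystrophic library than in its control. Every other gene of both lists was higher in D2-*mdx* than in DBA. In *mdx*, *Kcnj8*, *Abcc9*, *Cspg4*, *Steap4*, *Mmp13* and *Clec3b* were lower than in B10 and the remaining genes higher. The white blood cell, glial, endothelial and smooth muscle lists had higher sums in each dystrophic library than in its control, white blood cell genes with 1.78 and 7.87 CPM in the controls against 22.1 and 79.0, glial genes with 15.2 and 10.5 against 21.4 and 19.8, endothelial genes with 4.17 and 5.52 against 13.7 and 15.9 and smooth muscle genes with 2.42 and 7.76 against 6.64 and 8.39. Their part in the results was not tested.

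*Tnxb* encodes tenascin-X, a matrix glycoprotein that binds collagen fibrils (ENSMUSG00000033327, GRCm38 chromosome 17, 34670535 to 34719815, plus strand). In *Pax7*-positive cells it had 180 CPM (176 to 184) in B10 and 157 (153 to 162) in DBA, while *mdx* had 17.7 (16.3 to 19.3) and D2-*mdx* 23.1 (21.2 to 25.1). Both dystrophic libraries lay far below both controls. The level was 10.1-fold lower in *mdx* than in B10, a log2 ratio of -3.34 (-3.47 to -3.22), and 6.81-fold lower in D2-*mdx* than in DBA, a log2 ratio of -2.77 (-2.90 to -2.64). Of 8425 genes that reached 10 CPM in B10 or *mdx*, *Tnxb* was number 19 from the lowest ratio, and of 8386 in the other comparison number 38. With every cell thinned to 3000 UMIs, a *Tnxb* UMI was held by 40.0% of *Pax7*-positive cells in B10 and 33.7% in DBA, while *mdx* had 6.28% and D2-*mdx* 7.003%. Without thinning the shares were 70.5% and 69.8% against 10.3% and 13.0%, at median depths of 8416 and 10251 against 6729.5 and 6130 UMIs. Exons of *Tnxb* overlap those of *Cyp21a2-ps* on the opposite strand.

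*Cdh4* encodes R-cadherin, a classical cadherin of calcium-dependent adhesion (ENSMUSG00000000305, chromosome 2, 179442431 to 179899373, plus strand). It had 20.1 CPM (18.7 to 21.5) in B10 and 18.5 (16.9 to 20.1) in DBA, while *mdx* had 2.02 (1.56 to 2.57) and D2-*mdx* 0.617 (0.345 to 1.02), where 15 UMIs were counted over 3313 cells. The controls overlapped in their intervals, and both dystrophic libraries lay below them. The log2 ratio was -3.32 (-3.70 to -2.95) in *mdx* over B10, number 21 from the lowest, and -4.90 (-5.75 to -4.17) in D2-*mdx* over DBA, number 2 from the lowest.

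*Cadm4* encodes a nectin-like adhesion molecule of the immunoglobulin superfamily, known from the contact of myelinating glia with axons (ENSMUSG00000054793, chromosome 7, 24482023 to 24504539, plus strand). It had 34.2 CPM (32.4 to 36.1) in B10 and 24.1 (22.3 to 25.9) in DBA, while *mdx* had 8.19 (7.23 to 9.24) and D2-*mdx* 7.24 (6.21 to 8.39). The dystrophic libraries overlapped in their intervals and lay below both controls, of which B10 was the higher. The log2 ratios were -2.06 (-2.26 to -1.87) and -1.73 (-1.98 to -1.49), and 9.49% and 7.52% of thinned control cells held a UMI, against 2.74% and 2.48%.

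*Mcam* encodes CD146, an adhesion receptor of pericytes, smooth muscle and endothelium (ENSMUSG00000032135, chromosome 9, 44134469 to 44142727, plus strand). Its level in *Pax7*-positive cells was 12.8 CPM (11.7 to 14.0) in B10 and 18.4 (16.9 to 20.02) in DBA, while *mdx* had 3.69 (3.06 to 4.42) and D2-*mdx* 3.70 (2.98 to 4.55). DBA was the higher control, and the dystrophic libraries were nearly at the same level. The log2 ratios were -1.80 (-2.10 to -1.51) and -2.31 (-2.65 to -1.99). The gene has an antisense neighbour, *Gm10687*.

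*Nlgn3* encodes neuroligin-3, a postsynaptic partner of neurexins (ENSMUSG00000031302, chromosome X, 101299168 to 101325963, plus strand). It had 2.01 CPM (1.59 to 2.504) in B10 from 79 UMIs and 3.87 (3.18 to 4.65) in DBA from 112, against 0.713 (0.452 to 1.07) in *mdx* from 23 and 0.905 (0.567 to 1.37) in D2-*mdx* from 22. Both dystrophic libraries lay below both controls, at counts that leave wide intervals. The log2 ratios were -1.49 (-2.23 to -0.81) and -2.09 (-2.82 to -1.43), and *Nlgn3* is the member that did not reach 10 CPM in these cells of any library. Its exons overlap those of *Gm21986* on the same strand, so its counts are uncertain.

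*Ncam1* encodes the neural cell adhesion molecule, CD56, a known surface protein of satellite cells and myoblasts (ENSMUSG00000039542, chromosome 9, 49502136 to 49798925, minus strand). Its level was 324 CPM (318 to 329) in B10 and 292 (285 to 298) in DBA, while *mdx* had 272 (266 to 277) and D2-*mdx* 232 (226 to 238). The dystrophic libraries were lower, but by much less than for the other members. The log2 ratios were -0.25 (-0.29 to -0.21) and -0.33 (-0.38 to -0.28), at places 2643 of 8425 and 2407 of 8386 from the lowest. A UMI was held by 58.3% and 58.2% of thinned control cells, against 53.6% and 48.4%. To call all 6 genes lost in dystrophy therefore goes against the values of *Ncam1*.

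In each comparison 5 of the 6 members had a log2 ratio of -1 or lower, and 4 of the 5 that reached 10 CPM. Over all genes that reached it, 4.56% were as low in *mdx* over B10 and 4.47% in D2-*mdx* over DBA, while 4.17% and 4.33% had a ratio of 1 or higher. Since the members were chosen on this contrast, nothing is read from the difference. The member nearest to -1 on the low side was *Nlgn3* (-1.49) in the first comparison and *Cadm4* (-1.73) in the second, and *Ncam1* was the one outside. The median ratio of all genes was -0.04 and -0.06.

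**Figure D1:**
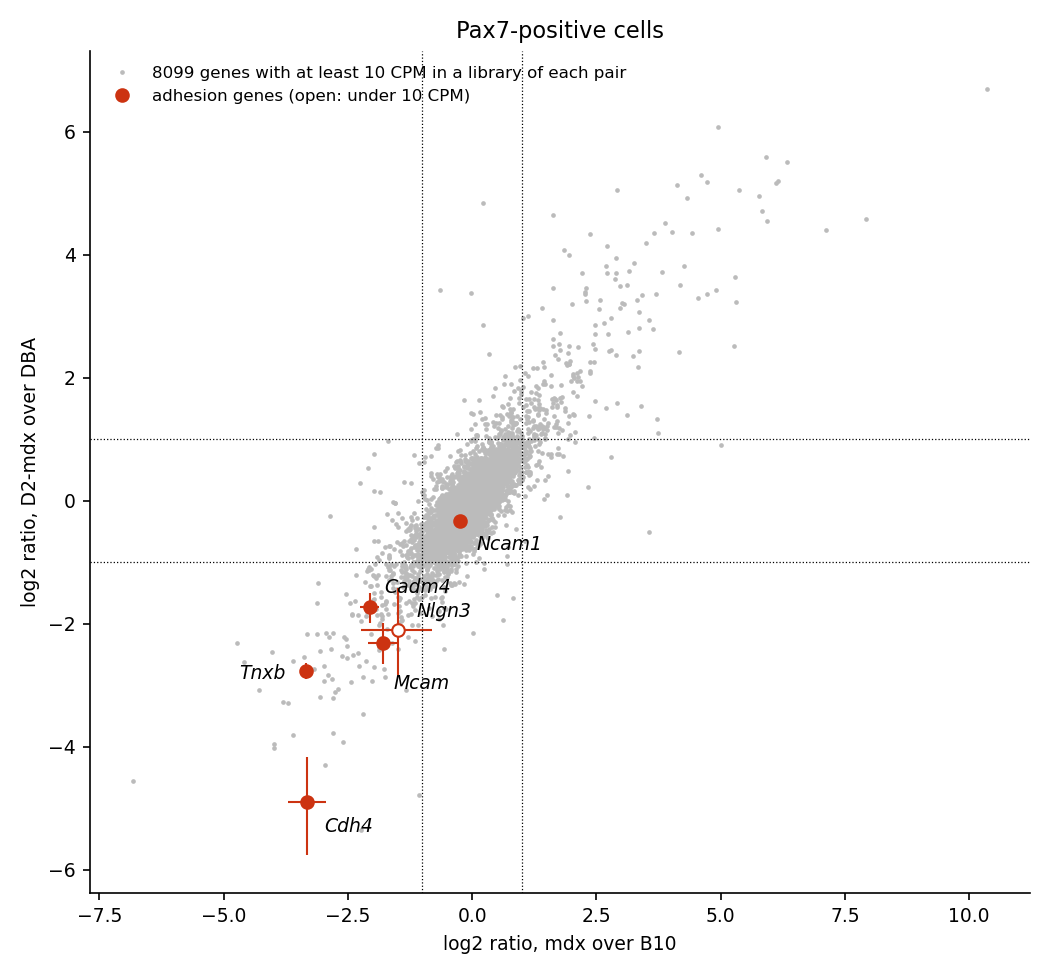
Log2 ratio of CPM in *Pax7*-positive cells, *mdx* over B10 on the x axis and D2-*mdx* over DBA on the y axis, for 8099 genes that passed the 10 CPM minimum in both comparisons (grey). The adhesion genes are in red with 95% counting intervals, *Nlgn3* open, and dotted lines mark ratios of -1 and 1: *Ncam1* sits in the body of all genes (-0.25 and -0.33) and the other members lie below -1 on both axes.

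The members were sparse within single cells. At 3000 UMIs per cell, 49.8% of *Pax7*-positive cells in B10 and 55.6% in DBA held no UMI of the 5 members other than *Ncam1*, while *mdx* had 88.9% and D2-*mdx* 89.2%. With *Ncam1* included, UMIs of at least 2 members were held by 33.5% and 29.1% of control cells, against 6.53% and 5.80% of dystrophic cells.

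**Figure D2:**
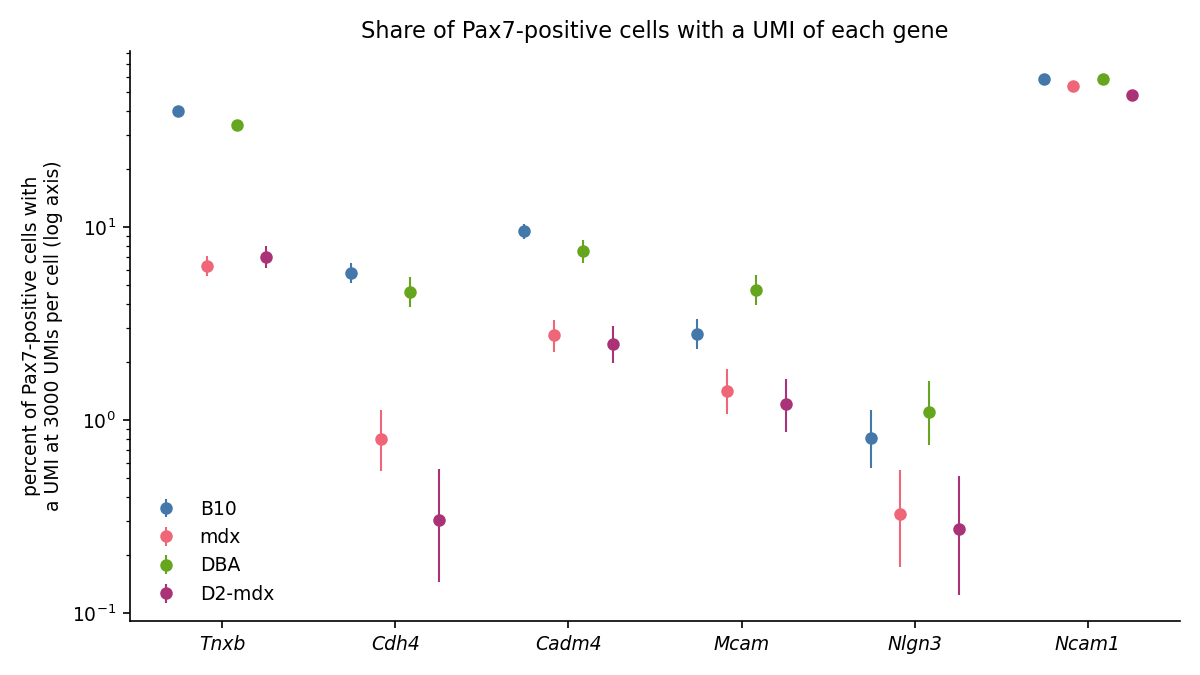
Percent of *Pax7*-positive cells with at least 1 UMI of each gene after thinning to 3000 UMIs per cell, on a log axis, with 95% Clopper-Pearson intervals. *Tnxb* stands at 40.0% and 33.7% in B10 and DBA and at 6.28% and 7.003% in *mdx* and D2-*mdx*, while the values of *Ncam1* lie between 48.4% and 58.3%.

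Free RNA gives UMIs in cells that do not express a gene, so the low levels in the dystrophic libraries were set beside white blood cells. That white blood cells lack these genes was assumed and not tested. In *mdx*, 126 white blood cells with a median of 8268.5 UMIs had 5.62 CPM of *Tnxb*, 3.21 of *Cadm4*, 4.02 of *Mcam* and 0.803 of *Cdh4*, with thinned shares of 1.59%, 0.794%, 1.59% and 0.794%. In D2-*mdx*, 205 white blood cells with a median of 10056 UMIs had 8.72 CPM of *Tnxb*, 2.08 of *Cadm4* and of *Nlgn3*, 2.91 of *Mcam* and 0.415 of *Cdh4*, with shares of 2.44%, 0.488%, 0.488%, 1.46% and 0.488%. These cells are not free of satellite cell RNA: 75 of the 126 and 118 of the 205 held no *Pax7* UMI. Their *Tnxb* levels were above those of dividing and *Myog*-positive cells of the same library, given further on. White blood cells are thus not the lowest level of *Tnxb* seen. The levels and shares left of *Tnxb* and *Cadm4* in dystrophic *Pax7*-positive cells were above those of white blood cells. For *Cadm4* in *mdx* the white blood cell share is 1 cell of 126. Its interval (0.0201 to 4.34) holds the 2.74% of *Pax7*-positive cells. In D2-*mdx* the *Cadm4* share of white blood cells, 0.488%, rests on as few cells. Endothelial cells of D2-*mdx* had a *Tnxb* share of 6.38% (2.38 to 13.4) in 94 cells, or 3.85% (0.8003 to 10.8) in the 78 without a *Pax7* UMI, beside the 7.003% of *Pax7*-positive cells, and those of *mdx* 1.55% (0.424 to 3.92) in 258 cells. The shares of *Mcam* in dystrophic *Pax7*-positive cells, 1.42% and 1.21%, and those of *Cdh4* and *Nlgn3* in D2-*mdx*, 0.302% and 0.272%, were at or below those of white blood cells. *Cdh4* in *mdx*, at 0.797%, was close to the white blood cell share, which is 1 cell of 126. This reference is itself thin. In white blood cells without a *Pax7* UMI, *Cdh4* and *Nlgn3* were held by 0 of 118 cells in D2-*mdx*, an upper bound of 3.08%, and *Mcam* by 0 of 75 in *mdx* and 2 of 118 in D2-*mdx*. What is left of *Mcam*, *Nlgn3* and *Cdh4* in dystrophic cells was therefore not told apart from white blood cells at these counts. Nor was the share left of *Cadm4*. This limits the sizes of the ratios of these genes. Thinned *Cadm4* shares of pericytes were 0.625% (0.171 to 1.59) in *mdx* and 0.688% (0.277 to 1.41) in D2-*mdx*. Those of *Pax7*-positive cells were higher, at 2.74% (2.26 to 3.29) and 2.48% (1.97 to 3.06). Endothelial cells had 0 of 258 in *mdx*, an upper bound of 1.42%, and 1.06% (0.0269 to 5.79) in D2-*mdx*. Whether pericytes and endothelial cells lack *Cadm4* was not tested. B10 had 1 white blood cell and was left without a white blood cell reference. DBA had 24, of which 6 held no *Pax7* UMI. In the 24, thinned shares were 29.2% (12.6 to 51.1) for *Tnxb* and 12.5% (2.66 to 32.4) for *Mcam*. *Cadm4* and *Cdh4* had 4.17% each (0.105 to 21.1). *Pax7*-positive cells of DBA had 33.7%, 4.73%, 7.52% and 4.62%, inside those intervals. Most of the 24 held satellite cell RNA, so they set no background for the controls.

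Dystrophic *Pax7*-positive cells were not uniform. They were split within each library by a list of 8 genes of a matrix-producing state (*Cdkn1c*, *Cited1*, *Col1a1*, *Col1a2*, *Gpc3*, *Gper1*, *Mgp*, *Postn*), known to be higher in these dystrophic cells. Cells with 2 or more of these genes made up 4.24% of *Pax7*-positive cells in B10 and 4.73% in DBA, while *mdx* had 55.1% and D2-*mdx* 39.1%. *Tnxb* in *mdx* was at 42.9 CPM (36.9 to 49.6) in cells with none of the genes, 34.0 (29.5 to 38.9) with 1 and 8.25 (7.09 to 9.54) with 2 or more. The last of these levels was near that of the white blood cells of *mdx* and above those of its dividing and *Myog*-positive cells. In D2-*mdx* the levels were 32.4 (27.6 to 37.6), 27.1 (23.5 to 31.2) and 16.5 (14.3 to 19.0) CPM, and the order was the same. B10 had 178, 189 and 161 CPM and DBA 158, 160.0 and 134. Dystrophic cells without any of these genes thus still lay below the controls, with log2 ratios of -2.05 (-2.27 to -1.84) and -2.29 (-2.52 to -2.06).

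*Cadm4* had 14.3 CPM (10.9 to 18.4) in *mdx* cells with none of the matrix genes and 5.87 (4.89 to 6.97) with 2 or more, and 9.88 (7.36 to 13.0) and 5.59 (4.32 to 7.11) in D2-*mdx*. *Cdh4* had 4.93 (3.05 to 7.53) and 1.19 (0.778 to 1.75) CPM in *mdx*. On the log2 scale the second level of *Cdh4* over the first was -2.05 (-2.93 to -1.15). The same ratio was -0.88 (-1.59 to -0.26) in B10 and -1.02 (-1.90 to -0.25) in DBA, so it was lower in such cells of the controls too. *Mcam* had 3.05 and 3.62 CPM in *mdx* and 4.07 and 2.71 in D2-*mdx*, and *Ncam1* 256 and 278 in *mdx* and 240.2 and 224 in D2-*mdx*, so neither had 1 direction in both libraries. Cells with none of the genes were also shallower, with medians of 4887.5 against 9037.5 UMIs in *mdx* and 5303 against 7787 in D2-*mdx*, whereas in B10 they were at 8360.0 against 9090.0. The part of depth was not tested.

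The same cells were split at each library's median of immediate-early UMIs (*Fos*, *Jun*, *Egr1* and 9 others), genes induced by activation and by tissue dissociation. *Tnxb* was higher in the upper part of both dystrophic libraries, at 28.8 CPM (26.0 to 31.8) against 9.92 (8.55 to 11.4) in *mdx* and 34.4 (30.9 to 38.2) against 15.1 (13.1 to 17.3) in D2-*mdx*. The controls went the other way by little, with 170 against 191 CPM in B10 and 151 against 163 in DBA. The upper part was shallower in the dystrophic libraries, with medians of 5991 against 8246 UMIs in *mdx* and 5522 against 7203 in D2-*mdx*. In B10 the medians were 8920 against 7817 and in DBA 10165 against 10358. The part of depth was not tested here either. In *mdx*, *Cdh4* had 3.36 CPM against 1.06 (0.648 to 1.64), and *Cadm4* 11.2 (9.48 to 13.1) against 6.05 (4.99 to 7.26). In D2-*mdx* the intervals of *Cadm4* overlapped, with a log2 ratio of upper to lower part of 0.24 (-0.21 to 0.68), and in the controls it was -0.23 (-0.38 to -0.07) and -0.36 (-0.58 to -0.14). *Cdh4* in D2-*mdx* had 12 UMIs in the upper part and 3 in the lower, and its log2 ratio was 0.05 (-0.15 to 0.26) in B10 and -0.57 (-0.83 to -0.31) in DBA. The splits are not independent, as *mdx* cells with none of the matrix genes held 557 immediate-early UMIs per 10000 and those with 2 or more 259. Cells with a UMI of *Myod1*, the activator of myogenic commitment, had less *Tnxb* than cells without, by less than the difference between dystrophic and control cells. The levels were 163 against 192 CPM in B10, 143 against 173 in DBA, 15.4 against 18.7 in *mdx* and 18.4 against 25.5 in D2-*mdx*. In *mdx* the log2 ratio was -0.276 (-0.561 to 0.00144), so its interval holds 0.

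**Figure D3:**
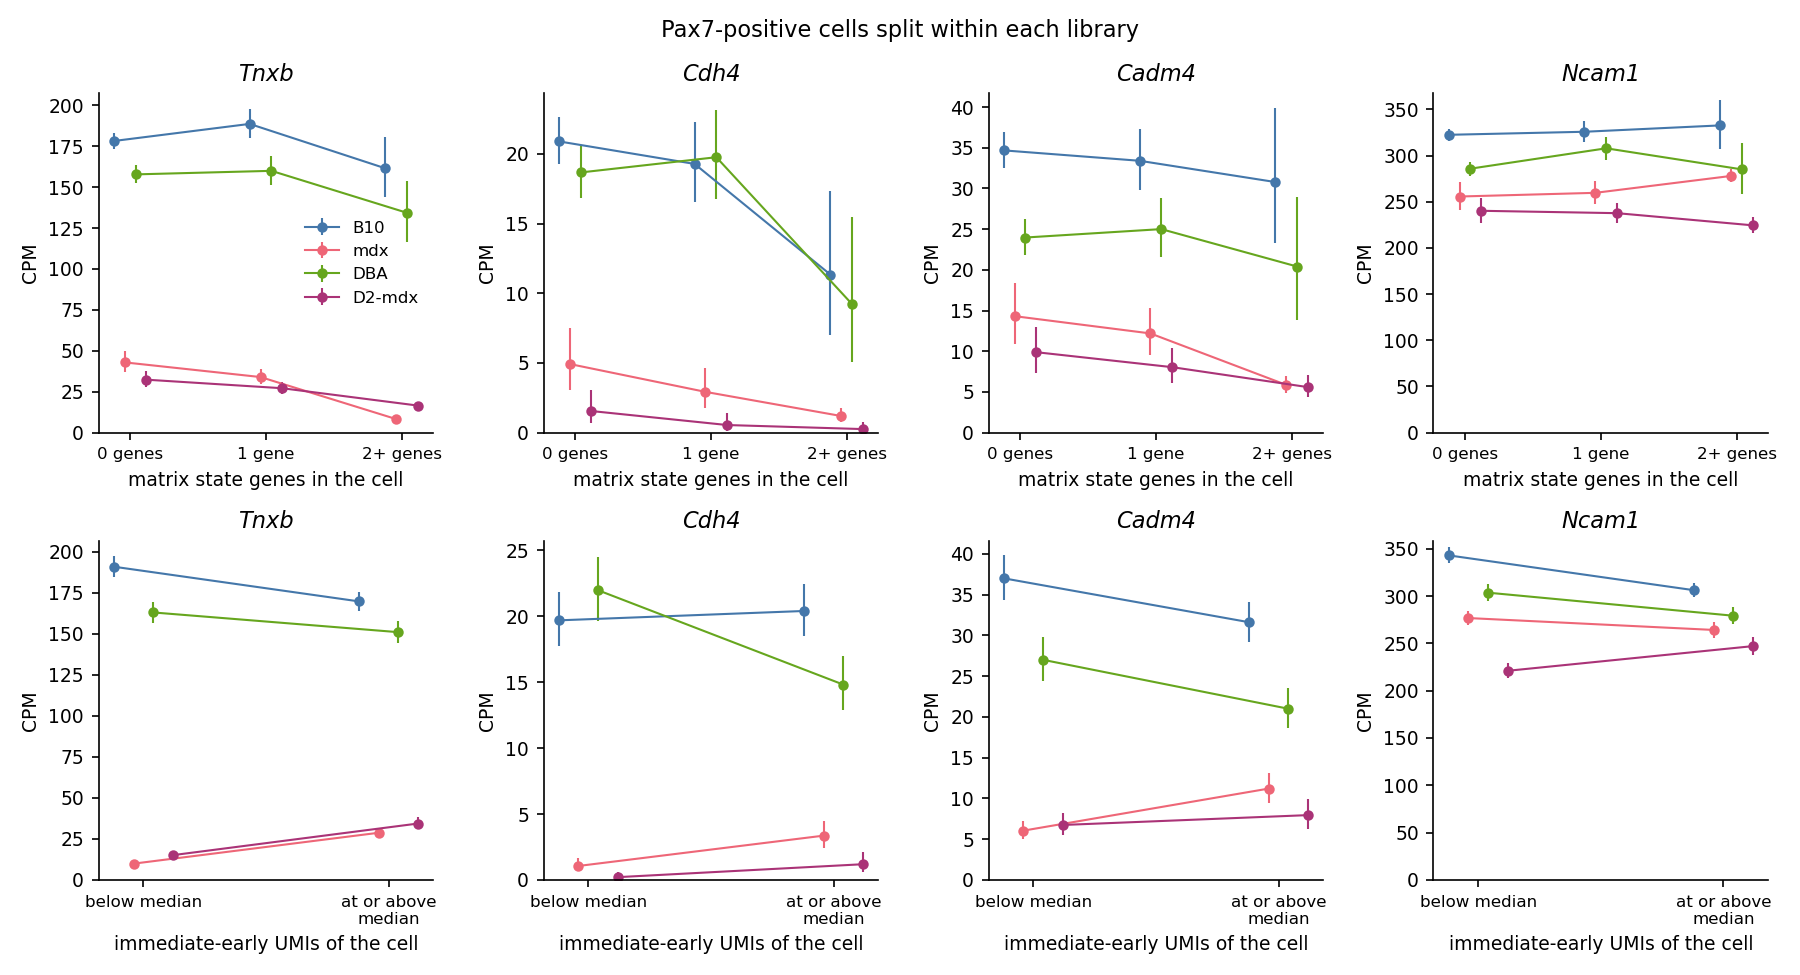
CPM of *Tnxb*, *Cdh4*, *Cadm4* and *Ncam1* in *Pax7*-positive cells, split within each library by the number of matrix state genes in the cell (top) and by immediate-early UMIs below or above the library's median (bottom), with 95% counting intervals. *Tnxb* in *mdx* goes from 42.9 to 8.25 CPM across the top split, while the control libraries stay at or above 134 CPM.

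In dividing and *Myog*-positive cells of the dystrophic libraries, *Tnxb* and *Cdh4* were near 0. *Tnxb* had 1.91 CPM (0.395 to 5.59) in 98 dividing *mdx* cells and 3.60 (1.80 to 6.45) in 190 of D2-*mdx*, and 0.943 (0.194 to 2.76) and 1.16 (0.316 to 2.97) in 215 and 233 *Myog*-positive cells. *Cdh4* had no UMI in dividing cells of either library, and the limit that 3 counts set is 1.91 CPM in *mdx* and 0.982 in D2-*mdx*. Its *Pax7*-positive levels there, 2.02 and 0.617 CPM, were near or below these limits, so no further fall in dividing cells is shown. *Mcam* was not lower in *Myog*-positive cells, at 8.17 CPM (5.34 to 11.97) in *mdx* and 4.64 (2.65 to 7.53) in D2-*mdx*. *Ncam1* had 183 (162 to 206) and 124 (112 to 138) CPM in dividing cells and 136 (123 to 149) and 131 (119 to 144) in *Myog*-positive cells, below its *Pax7*-positive level. The controls gave few such cells, 4 and 15 dividing and 10 and 24 *Myog*-positive. In the 24 *Myog*-positive cells of DBA, *Cadm4* had 23.7 CPM (11.4 to 43.6) from 10 UMIs, against 5.22 (3.09 to 8.24) from 18 in D2-*mdx*, a log2 ratio of -2.18 (-3.38 to -0.91).

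Glial cells were where *Cadm4* was highest. It had 454 CPM (382 to 536) in 37 B10 cells and 368 (318 to 424) in 43 DBA cells, against 778 (747 to 809) in 437 *mdx* cells and 644 (612 to 676) in 292 D2-*mdx* cells. The dystrophic libraries were higher here, with log2 ratios of 0.78 (0.53 to 1.03) and 0.81 (0.59 to 1.03), the opposite direction to *Pax7*-positive cells. *Pax7* in these glial cells was at 284 and 296 CPM in the controls against 78.9 and 132, so the control glia held more RNA of this satellite cell gene. In glial cells without a *Pax7* UMI, 25 and 17 control and 345 and 203 dystrophic cells, *Cadm4* had 424 CPM in B10 and 747 in DBA, while *mdx* had 890 and D2-*mdx* 757. The log2 ratios were then 1.07 and 0.02, so the higher level was seen without these cells in *mdx* and was not seen in D2-*mdx*.

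*Nlgn3* was also highest in glia, at 58.8 CPM (34.9 to 92.97) in B10 and 75.9 (54.2 to 103) in DBA, while *mdx* had 50.9 (43.4 to 59.4) and D2-*mdx* 42.3 (34.5 to 51.2). Its log2 ratios were -0.21 (-0.91 to 0.58) and -0.85 (-1.39 to -0.28), and 0.65 and -0.95 in glial cells without a *Pax7* UMI. *Ncam1* in glia had 333 (272 to 405) and 385 (334 to 442) CPM in the controls against 370 (349 to 391) and 288 (267 to 311). Its log2 ratios were 0.15 and -0.42, and 0.55 and 0.34 in glial cells without a *Pax7* UMI. *Mcam* had 150 (110 to 201) and 83.5 (60.7 to 112) against 85.5 (75.6 to 96.3) and 97.2 (85.2 to 110). The log2 ratios of *Mcam* were -0.81 and 0.22, and the intervals of D2-*mdx* and DBA overlapped. *Tnxb* in glia, at 75.2 and 125 CPM against 22.3 and 46.8, had log2 ratios of -1.75 and -1.42, and of -0.32 and 0.13 in glial cells without a *Pax7* UMI.

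Pericytes held *Tnxb* near the level of control satellite cells. It had 187 CPM (163 to 214) in 104 B10 cells and 201 (190 to 213) in 501 DBA cells, against 111 (102 to 120) in 640 *mdx* cells and 124 (116 to 132) in 1018 D2-*mdx* cells. Both dystrophic libraries were lower, with log2 ratios of -0.76 (-0.99 to -0.53) and -0.70 (-0.82 to -0.58), and of -0.76 and -0.65 in pericytes without a *Pax7* UMI. These ratios lie nearer to 0 than those of *Pax7*-positive cells, and with 1 library per strain that difference was not tested. *Mcam* in pericytes had 121 CPM (101 to 143) and 104 (96.3 to 113) in the controls against 107 (98.0 to 116) and 81.6 (75.5 to 88.1), with log2 ratios of -0.18 (-0.45 to 0.10) and -0.36 (-0.52 to -0.19). *Nlgn3* had 7.99 (3.65 to 15.2) and 9.71 (7.36 to 12.6) CPM against 3.58 (2.15 to 5.59) and 3.22 (2.10 to 4.72), with log2 ratios of -1.16 and -1.59, and of -0.28 and -1.70 without cells that held a *Pax7* UMI. *Ncam1* had 41.7 (30.6 to 55.5) and 50.4 (44.9 to 56.5) CPM against 14.9 (11.8 to 18.5) and 21.8 (18.7 to 25.3), with log2 ratios of -1.49 and -1.21. *Pax7* in the pericytes was at 127 and 46.2 CPM against 24.1 and 27.4, and without cells that held a *Pax7* UMI the *Ncam1* ratios were -1.08 and -1.24. *Cdh4* stood between 1.86 and 3.55 CPM in pericytes. Its log2 ratio to *Pax7*-positive cells of the same library was -2.50 (-4.38 to -1.14) in B10 and -2.59 (-3.36 to -1.92) in DBA. In *mdx* the ratio was 0.04 (-1.03 to 0.97) and in D2-*mdx* 1.59 (0.46 to 2.72).

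Endothelial cells had 62.0 CPM (52.1 to 73.2) of *Mcam* in 258 *mdx* cells and 32.6 (21.5 to 47.4) in 94 D2-*mdx* cells. *Tnxb* was at 6.73 (3.77 to 11.1) and 12.1 (5.79 to 22.2) CPM in them, log2 ratios of -1.40 (-2.24 to -0.66) and -0.94 (-2.004 to -0.05) to the *Pax7*-positive cells of the same library. B10 and DBA gave 14 and 9 endothelial cells, too few to compare. Fibroblasts, 21 in *mdx* and 45 in D2-*mdx*, had 246 (189 to 314) and 285 (244 to 331) CPM of *Tnxb*.

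**Figure D4:**
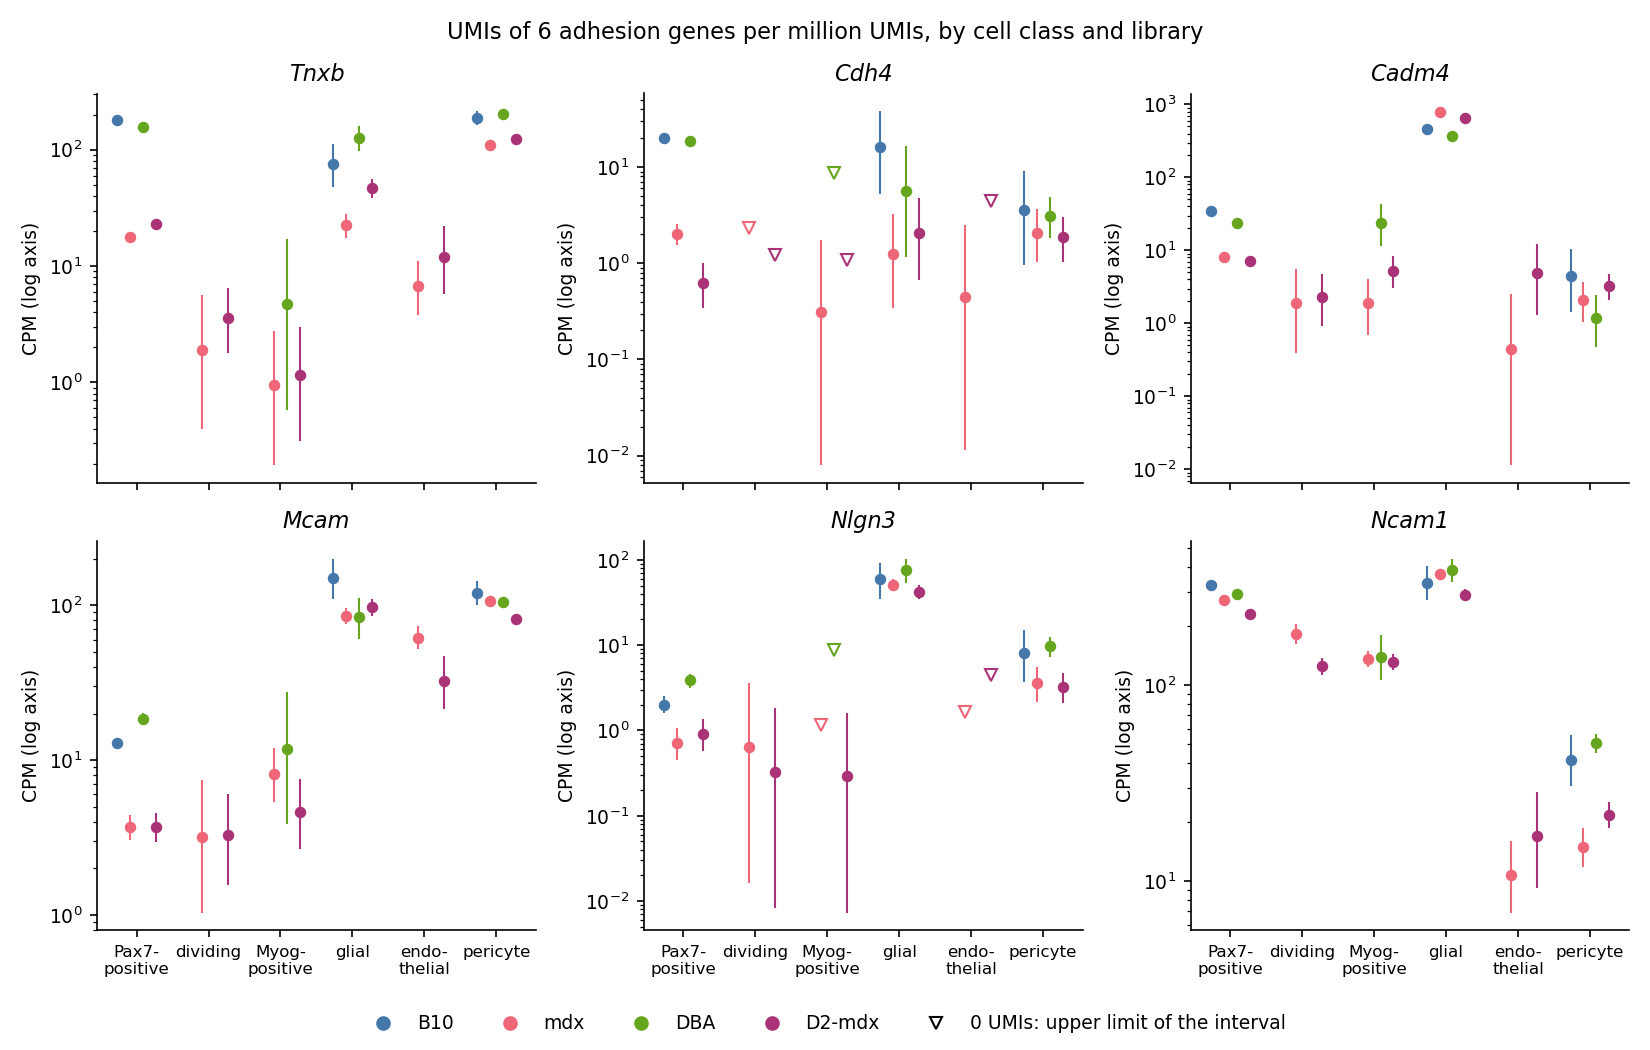
CPM of the 6 adhesion genes on log axes, by cell class and library, with 95% Poisson intervals; classes with under 20 cells are left out and triangles mark the upper limit where no UMI was seen. *Cadm4* (up to 778 CPM) and *Nlgn3* (up to 75.9 CPM) peak in glia. *Tnxb* stands above 110 CPM in pericytes, in control *Pax7*-positive cells and in glia of DBA.

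The genes with the pattern most like each member were found by Pearson's r of log2(CPM + 5) over the 19 points of library and class with at least 20 cells, among 9814 genes. They were *Rab11fip3*, *Gabpb2* and *Il11ra1* for *Tnxb* (r = 0.95, 0.94 and 0.93), and *Slc38a3* and *Angptl1* were among those for *Cdh4* (0.90 for each). For *Cadm4* they were *Epb41l4b*, *Mlip* and *Bmper* (0.99, 0.98 and 0.98), and for *Nlgn3* the glial marker *S100b*, *Kif1a* and *Ntng1* (0.98, 0.97 and 0.97). For *Mcam* they were *Lgalsl*, *Ptk2* and *Arap2* (0.97, 0.95 and 0.95), and for *Ncam1* *Dag1*, *Gsap* and *Antxr2* (0.97, 0.96 and 0.96). Between members, r was 0.88 for *Cadm4* and *Nlgn3*, 0.71 for *Tnxb* and *Cdh4* and -0.01 for *Tnxb* and *Ncam1*. Points of 1 library share its depth and free RNA, and points of 1 class its cell type.

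Of 53 other adhesion genes, in lists of cadherins, catenins, nectins and nectin-like proteins, immunoglobulin-family proteins, synaptic adhesion proteins and tenascins, 25 reached 10 CPM in B10 or *mdx*, of which 2 had a log2 ratio of -1 or lower and 4 of 1 or higher, beside 4.56% and 4.17% of all genes. In D2-*mdx* over DBA 27 reached it, with 6 and 3, beside 4.47% and 4.33%. The median ratio of the lists was -0.01 in both, beside -0.04 and -0.06 over all genes. *Pvrl1*, the gene of nectin-1, was the 1 list gene low in both among the 23 that reached 10 CPM in both comparisons, at 52.8 and 73.7 CPM in the controls against 21.03 and 30.6, with log2 ratios of -1.33 (-1.46 to -1.20) and -1.27 (-1.39 to -1.15).

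Among the same 23, *Tnc*, *Cdh2* and *Bcam* were high in both. *Tnc*, the tenascin known from injured and regenerating muscle, had 0.509 and 0.414 CPM in the controls against 27.7 and 12.9, the opposite direction to its relative *Tnxb*. *Cdh2*, the gene of N-cadherin, had 5.62 and 4.97 CPM against 52.6 and 25.4, the opposite direction to *Cdh4*. *Cdh15*, the gene of M-cadherin at the contact of satellite cell and myofibre, had 207 and 197 CPM against 329 and 331, log2 ratios of 0.66 and 0.75. *Bcam*, a laminin-binding receptor, had 21.5 and 15.0 CPM against 50.2 and 37.4. *Cadm2*, a relative of *Cadm4*, had 7.89 and 19.4 CPM in the controls against 2.61 and 4.11, and *Celsr2*, an atypical cadherin, 8.11 and 15.1 against 2.88 and 3.62. Both reached 10 CPM only in DBA. *Nlgn2*, a relative of *Nlgn3*, had 29.2 and 26.2 CPM against 16.2 and 16.7, log2 ratios of -0.85 and -0.65.

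**Figure D5:**
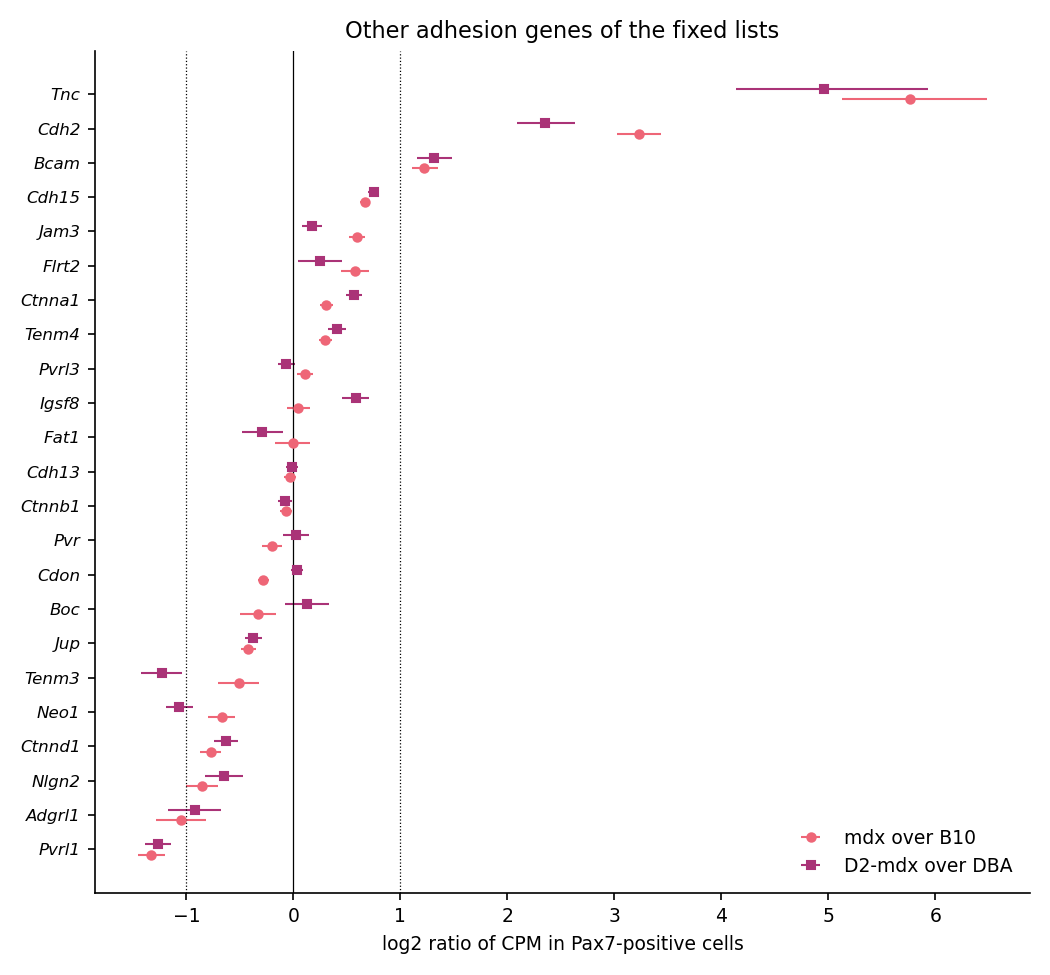
Log2 ratio of CPM in *Pax7*-positive cells, *mdx* over B10 (circles) and D2-*mdx* over DBA (squares), for the 23 other adhesion genes that passed the 10 CPM minimum in both comparisons, with 95% counting intervals. *Tnc* (5.77 and 4.96) and *Cdh2* (3.23 and 2.36) stand highest, and *Pvrl1* (-1.33 and -1.27) is the one below -1 in both.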

How the data were processed

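Each library came from the pooled hindlimb muscle cells of 2 mice. The deposited values are whole UMI counts by gene and barcode, not normalized, which the authors made with Cell Ranger 3.0.1 on mm10. Whether barcodes were filtered before deposit is not given in the sources used here. Kept cells had from 1000 to 5000 detected genes and a mitochondrial share of 8% or less. The cells with the highest doublet scores of Scrublet (scanpy 1.11.5) were removed, up to a number set beforehand at 0.8% per 1000 cells. That number came to 2.70% to 5.34% of cells, so it is not a count of doublets found. Classes were set by marker genes (at least 4 for a non-myogenic class). *Myog*-positive cells hold at least 2 *Myog* UMIs and dividing cells at least 4 of 12 cell-cycle genes. Counts were summed per class and library, and a gene entered the counts of ratios if either library of the pair had 10 CPM or more. A count of 0 was set to a floor of 3. Intervals are exact (Poisson, Clopper-Pearson). Since each strain is 1 library, strains were described and not tested. The ratio and thinning steps were tested on simulated data. Python 3.11.15, edgeR 4.0.16 and DESeq2 1.42.0 (size factors only) were used.

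Members, lists and alternatives were chosen with earlier results of these data known. Named are the members, *Dmd*, *Pax7*, class markers, list genes at 10 CPM or more in both comparisons with a log2 ratio past 1 in the same direction, *Cdh15*, *Cadm2*, *Celsr2* and *Nlgn2*, and the 3 genes most like each member, of which 1 is not reported here. Gene positions are from GENCODE M21 on GRCm38.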

Additional observations from a re-analysis of the deposited data

Results flagged for a closer look

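*Cadm4* went in opposite directions in 2 cell classes. In glial cells its log2 ratio was 0.78 in *mdx* over B10 and 0.81 in D2-*mdx* over DBA, while in *Pax7*-positive cells it was -2.06 and -1.73. With 1 library per strain the difference between the classes was not tested. It rests on 37 B10 and 43 DBA glial cells, and without cells that hold a *Pax7* UMI the glial ratios were 1.07 and 0.02.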

How the results depend on the processing

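Under 14 other ways of setting the cells, the classes or the library sizes, 5 of 6 members stayed at a log2 ratio of -1 or lower in both comparisons. The ratio of *Tnxb* lay between -4.27 and -2.05 in *mdx* over B10 and between -3.43 and -2.29 in D2-*mdx* over DBA, that of *Cadm4* between -2.61 and -1.28 and between -2.002 and -1.28, that of *Cdh4* between -4.22 and -2.09 and between -6.71 and -3.59, that of *Nlgn3* between -1.97 and -1.003 and between -4.29 and -1.28, that of *Mcam* between -2.10 and -1.60 and between -2.63 and -2.12, and that of *Ncam1* between -0.35 and -0.19 and between -0.49 and -0.25. The values nearest to 0 for *Tnxb*, *Cadm4* and *Cdh4* came in both comparisons from *Pax7*-positive cells without a UMI of the matrix state genes. *Mcam* in *mdx* was lowest there, at -2.10. *Nlgn3* in *mdx* stood at -1.003 there, on 4 UMIs against 53 in B10. That setting's count of 5 members thus rests on few UMIs. The -4.29 of *Nlgn3* came from the same cells, on 1 UMI in D2-*mdx* against 75 in DBA. The -6.71 of *Cdh4* came from cells below the immediate-early median, on 3 UMIs in D2-*mdx*. With no minimum beyond 1 UMI in each library, the percent of all genes at -1 or lower was 11.1 and 10.5. In glial cells without a *Pax7* UMI, an alternative chosen after seeing the data, the D2-*mdx* over DBA ratio changed sign for *Ncam1*, to 0.34, and for *Tnxb*, to 0.13, and the *mdx* over B10 ratio for *Nlgn3*, to 0.65. Their causes were not tested. No library could be left out, since each strain is 1 library. No paired analysis was possible because each strain is 1 library with no replicate to pair. Depth limits *Nlgn3* and, in dystrophic cells, *Cdh4*, where few UMIs were counted.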
